A study of Homo sapiens with 6 samples.

Results

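The genes described here are the numbered zinc finger (ZNF) genes on human autosomes other than chromosome 19 that were expressed in T24 cells. They were chosen by symbol (ZNF, a number and at most 1 further letter), by chromosome and by a mean of at least 1 FPKM over all 6 libraries, where FPKM is the fragment count scaled to exonic length and library total. Of 286 such rows in a table of 63241 genes, 177 met the level threshold, 109 lay below it and 30 of those had no count in any library. The 177 genes lay on 19 chromosomes, 173 were annotated as protein coding, and they are called the members below. T24 is an established human bladder cancer line, cultured here in serum-containing medium and labelled wild type. The cells were transfected with a small interfering RNA against USP43 (siUSP43, 3 libraries) or with a control duplex (siNC, 3 libraries), and RNA was sequenced. The transfected groups differed in the duplex alone as labelled, and untransfected cells were not analysed here. The labels give neither the duplex sequences nor the number of duplexes, so loss of USP43 and other effects of the duplex cannot be told apart. They do not say whether replicate numbers mark separate cultures, and the p-values therefore reflect the spread among libraries only, some or all of which may be technical. The study asked how USP43, a deubiquitinating enzyme, acts on lipid metabolism in bladder cancer cells.

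ZNF proteins of this kind carry arrays of C2H2 zinc fingers, in which each finger holds a zinc ion and contacts a few bases of DNA or, in some proteins, RNA. Many also carry a KRAB domain, which binds TRIM28 and through it recruits the histone methyltransferase SETDB1, heterochromatin proteins and deacetylases, best known for silencing transposable elements. Others carry a SCAN domain, which mediates pairing between such proteins, and a minority act as promoter activators, ribosome factors or RNA-binding proteins. Many genes of the family lie in runs of neighbours made by repeated duplication, the largest on chromosome 19 and smaller ones on other chromosomes.

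The targeted gene, USP43, was at 1.02, 0.67 and 0.80 FPKM in the siUSP43 libraries, against 2.36, 2.09 and 2.08 FPKM in the siNC libraries. All 3 siUSP43 values lay below all 3 siNC values, with a log2 fold change of -1.40 (SE 0.14, adjusted p = 5.63e-06, edgeR with Benjamini-Hochberg adjustment; exact two-sided permutation p = 0.1, the smallest that 3 against 3 allows). Libraries held 21430574 to 25577200 gene counts in siUSP43 and 24049555 to 24594508 in siNC. Of 15 urothelial and epithelial markers, 6 reached 1 FPKM (KRT7, KRT8, KRT18, KRT19, FOXA1 and PPARG), and 7, the uroplakins UPK1A, UPK1B, UPK2 and UPK3A with KRT5, KRT20 and CDH1, lay below 0.1 FPKM. Their summed level was 472 to 535 FPKM in siUSP43 and 533 to 550 FPKM in siNC. No leukocyte, endothelial or fibroblast marker reached 1 FPKM among 7, 4 and 6 listed. Their summed levels in siUSP43 were 0.53 to 0.65, 0.07 to 0.11 and 1.21 to 1.29 FPKM. In siNC they were 1.01 to 1.29, 0.14 to 0.24 and 1.19 to 1.60 FPKM. The defining genes PTPRC, PECAM1 and COL1A2 lay below 0.1 FPKM, and the part of these markers in the results was not tested. In RNA from whole cultures, fewer cells expressing a gene and less RNA per cell cannot be told apart.

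The sequences before the start of 9 members are shown, 7 because they carry a motif pair to which the results on fold change return and the others for contrast. They come from RefSeq on GRCh38.p14, in which 145 of the 177 members had a promoter entry, and they run 5′ to 3′ on the gene's strand and end at the base before the RefSeq start. The members shown, and the pair of motifs described next, were chosen after their values were seen. In 7 members the letters CCAAT, in capitals, occur as a pair on the gene's strand with starts 29 bases apart, and 120 bases are given for each:

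ZNF678 (chr1:227563436-227563555, plus strand): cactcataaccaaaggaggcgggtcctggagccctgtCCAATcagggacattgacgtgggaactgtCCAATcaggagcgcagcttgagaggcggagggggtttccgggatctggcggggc

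ZNF138 (chr7:64794308-64794427, plus strand): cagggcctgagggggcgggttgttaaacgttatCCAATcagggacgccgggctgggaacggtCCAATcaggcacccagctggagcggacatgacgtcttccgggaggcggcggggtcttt

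ZNF267 (chr16:31873687-31873806, plus strand): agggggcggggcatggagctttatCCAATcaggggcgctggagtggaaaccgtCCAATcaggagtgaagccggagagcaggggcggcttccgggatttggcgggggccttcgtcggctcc

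ZNF680 (chr7:64563072-64563191, minus strand): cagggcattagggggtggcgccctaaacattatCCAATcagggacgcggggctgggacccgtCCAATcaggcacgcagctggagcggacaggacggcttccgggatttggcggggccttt

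ZNF92 (chr7:65373735-65373854, plus strand): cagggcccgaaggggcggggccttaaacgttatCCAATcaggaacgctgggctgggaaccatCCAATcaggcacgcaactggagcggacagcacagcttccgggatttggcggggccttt

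ZNF107 (chr7:64666013-64666132, plus strand): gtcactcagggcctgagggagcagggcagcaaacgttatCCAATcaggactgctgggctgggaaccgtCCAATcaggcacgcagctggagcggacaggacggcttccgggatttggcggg

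ZNF195 (chr11:3379147-3379266, minus strand): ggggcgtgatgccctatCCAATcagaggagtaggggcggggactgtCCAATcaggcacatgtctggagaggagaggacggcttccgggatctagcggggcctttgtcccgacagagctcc

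For contrast, 250 bases are given for ZNF367, in which the capitals mark E2F-type letters (TTTCCCGC, TTTGGCGC, TTTCGCGC or TTTGCCGC on either strand), and for ZNF785, the member with the lowest fold change, in which the capitals mark CCAAT:

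ZNF367 (chr9:96418371-96418620, minus strand): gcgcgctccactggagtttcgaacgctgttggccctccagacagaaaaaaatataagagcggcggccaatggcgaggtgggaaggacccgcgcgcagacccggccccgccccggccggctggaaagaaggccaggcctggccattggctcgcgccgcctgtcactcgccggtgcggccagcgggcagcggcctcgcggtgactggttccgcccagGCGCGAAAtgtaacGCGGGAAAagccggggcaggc

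ZNF785 (chr16:30585698-30585947, minus strand): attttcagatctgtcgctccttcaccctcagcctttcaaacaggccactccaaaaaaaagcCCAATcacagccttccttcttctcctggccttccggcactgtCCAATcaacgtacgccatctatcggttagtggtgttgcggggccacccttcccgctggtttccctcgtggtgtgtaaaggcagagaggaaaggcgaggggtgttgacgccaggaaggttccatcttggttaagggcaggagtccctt

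As a group the members lay higher in siUSP43 than in siNC. By edgeR's quasi-likelihood test, adjusted by Benjamini-Hochberg over all 11417 tested genes with a threshold of 0.05, 77 members rose (43.5%), 25 fell (14.1%) and 75 did not pass. Over all tested genes 28.0% were called higher and 28.1% lower. The median log2 fold change was 0.16 over the members (range -0.90 to 1.88, 119 of 177 above 0) and -0.01 over all tested genes. All 3 siUSP43 FPKM values lay above all 3 siNC values for 86 members (48.6%), against 32.5% of tested genes, and below them for 28 members (15.8%), against 29.6%. Increases of at least 1 on the log2 scale were called for 9 members (5.08%), against 1.39% of tested genes. Decreases of at least 1 were called for 0 members, against 2.29% of tested genes, and the count was also 0 at an unadjusted p under 0.05 and with DESeq2.

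**Figure D1:**
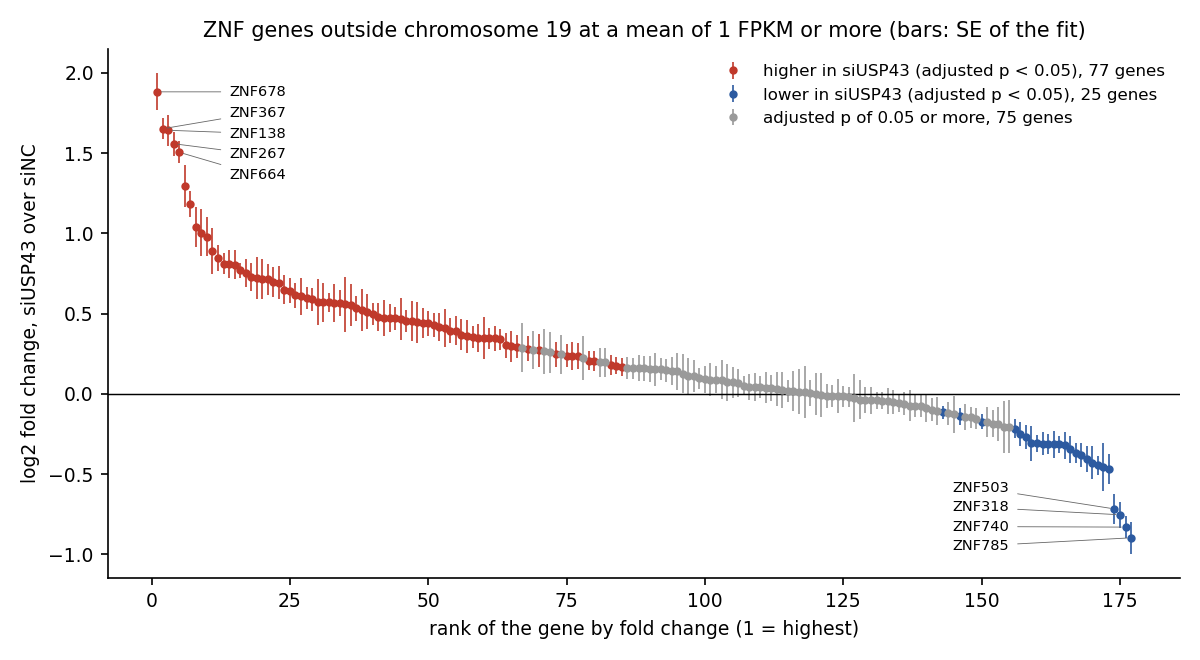
Log2 fold change, siUSP43 over siNC (y axis), of the 177 members ranked from highest to lowest (x axis), with the standard error of the edgeR fit as bars and colours for the call. The 77 called increases reach 1.88 (ZNF678, which met the level threshold only through siUSP43) and the 25 called decreases reach -0.90 (ZNF785).

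The members took 0.515, 0.494 and 0.533% of all gene counts in the siUSP43 libraries, against 0.457, 0.455 and 0.444% in the siNC libraries. Their summed FPKM was 750.0, 721.4 and 761.7 in siUSP43, against 641.1, 638.8 and 623.3 in siNC. All 3 siUSP43 libraries lay above all 3 siNC libraries on both measures, and siUSP43 replicate 2 was the lowest of its group. Relative to each gene's siNC mean, the median log2 CPM of the members was 0.19, 0.11 and 0.19 in siUSP43, against 0.01, 0.01 and -0.02 in siNC. For all tested genes the same median lay within 0.01 of 0 in every library. Among the 77 members that rose, siUSP43 replicate 3 held the highest of the 3 siUSP43 values for 45 and replicate 2 the lowest for 44.

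Most members were expressed at low levels, with means from 1.01 to 24.8 FPKM and a median of 2.56, against a median of 5.75 over all tested genes. Below 2 FPKM, 32 of 64 members rose (50%) and 8 fell (12.5%), with a median log2 fold change of 0.27, while 19.9% of the other tested genes in that bin were called higher and 24% lower (median -0.04). From 2 to under 5 FPKM, 31 of 78 members rose (39.7%) and 8 fell (10.3%), with a median of 0.11, while 798 of the 3119 other genes were called higher and 909 (29.1%) lower (median -0.03). At 5 FPKM or more, 14 of 35 members rose (40%) and 9 fell (25.7%), with a median of 0.10, and these shares lay closest to those of the other genes, 31.3% higher and 29.3% lower (median 0.00). The level threshold itself favours genes that are high in one group: 8 members had a siNC mean below 1 FPKM, all of which rose, and 1 had a siUSP43 mean below 1 FPKM, which fell. Among the 168 members with both means at 1 FPKM or more, 69 rose and 24 fell, with a median of 0.15. Just inside the threshold lay ZNF311 (mean 1.008 FPKM), ZNF169 (1.028) and ZNF397 (1.035), and just outside it ZNF273 (0.997), ZNF821 (0.968) and ZNF391 (0.963).

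The largest increase was in ZNF678, a KRAB gene on chromosome 1 (ENSG00000181450, chr1:227563543-227677443). It was at 1.79, 1.63 and 2.09 FPKM in siUSP43, against 0.48, 0.47 and 0.53 FPKM in siNC. The groups did not overlap, and the log2 fold change was 1.88 (SE 0.12, adjusted p = 1.41e-07, edgeR). Its mean was 1.84 FPKM in siUSP43 and 0.493 FPKM in siNC, so it met the threshold of 1 FPKM only through its siUSP43 level, and its place at the top of the order is a description. It also lies outside the rule for named genes, which asks for 2 FPKM in the higher group, and is named after its values were seen.

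Next came ZNF367, a zinc finger factor on chromosome 9 (ENSG00000165244, chr9:96385941-96418370) with no KRAB annotation, whose E2F-type letters are printed above. It was at 21.79, 19.85 and 23.01 FPKM in siUSP43, against 7.03, 6.72 and 6.59 FPKM in siNC. The lowest siUSP43 library was far above the highest siNC library, and the log2 fold change was 1.65 (SE 0.07, adjusted p = 5.76e-09, edgeR), the smallest adjusted p among the members. ZNF664 (ENSG00000179195, chr12:123971845-124015439) was at 20.10, 19.26 and 23.34 FPKM in siUSP43, against 7.12, 7.49 and 7.23 FPKM in siNC, with no overlap. Its log2 fold change was 1.51 (SE 0.07, adjusted p = 1.73e-08, edgeR), but its span overlaps the tested gene CCDC92, and reads of the pair may not be told apart where strand was not used.

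ZNF138 (ENSG00000197008, chr7:64794388-64833681) was at 5.91, 5.41 and 6.16 FPKM in siUSP43, against 1.71, 2.00 and 1.83 FPKM in siNC. ZNF267 (ENSG00000185947, chr16:31873807-31917357), a KRAB gene, was at 5.54, 5.10 and 6.01 FPKM in siUSP43, against 1.89, 1.91 and 1.78 FPKM in siNC. Neither gene's groups overlapped, and siUSP43 replicate 2 was the lowest siUSP43 library for both. Their log2 fold changes were 1.64 (SE 0.10, adjusted p = 1.07e-07, edgeR) and 1.56 (SE 0.08, adjusted p = 2.48e-08, edgeR). The KRAB genes ZNF680, ZNF721 and ZNF92 had log2 fold changes of 1.29, 1.18 and 1.04 (SE 0.13, 0.08 and 0.12). ZNF680 was at 3.71, 3.59 and 4.54 FPKM in siUSP43, against 1.67, 1.86 and 1.25 FPKM in siNC. ZNF92 was at 6.49, 5.12 and 7.25 FPKM in siUSP43, against 3.03, 3.37 and 2.68 FPKM in siNC and neither gene's groups overlapped. ZNF33B and ZNF343 rose with log2 fold changes of 0.85 and 0.81. The copies ZNF33A and ZNF33B are alike in sequence, and how reads shared between such copies were counted is not given in the sources used here.

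**Figure D2:**
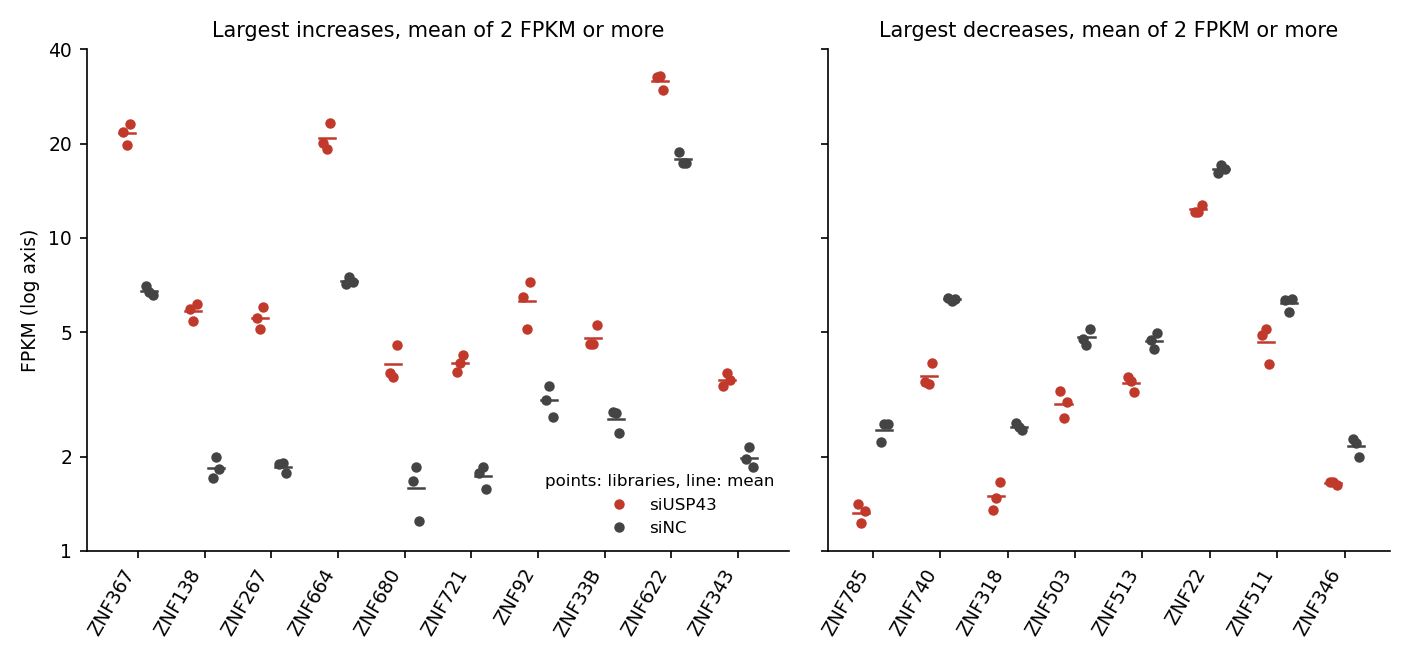
FPKM (log y axis) in each library for the 10 largest increases and 8 largest decreases by the naming rule, with siUSP43 left of siNC for each gene, points for libraries and lines for means. No gene's groups overlap, and the separation is widest for ZNF367 (19.85 to 23.01 FPKM in siUSP43, 6.59 to 7.03 in siNC).

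The decreases were smaller. ZNF785 (ENSG00000197162, chr16:30573740-30585769), a KRAB gene, was at 1.41, 1.23 and 1.34 FPKM in siUSP43, against 2.23, 2.55 and 2.54 FPKM in siNC. Its groups did not overlap, and its log2 fold change was -0.90 (SE 0.10, adjusted p = 1.43e-05, edgeR). ZNF740, which overlaps the tested gene CSAD, was at 3.46, 3.42 and 3.97 FPKM in siUSP43, against 6.42, 6.30 and 6.36 FPKM in siNC (log2 fold change -0.83, SE 0.07). ZNF318 (-0.75), ZNF503 (-0.72), ZNF513 (-0.47), ZNF22 (-0.45), ZNF511 (-0.43) and ZNF346 (-0.41) followed, all without overlap between groups. ZNF22 was the highest of these, at 12.13, 12.13 and 12.74 FPKM in siUSP43, against 16.15, 17.02 and 16.64 FPKM in siNC. ZNF513 and ZNF511 overlap the tested genes SNX17 and TUBGCP2. Over all members, 30 overlapped another tested gene, of which 8 rose (26.7%) and 5 fell (16.7%). Of the 147 that did not, 69 rose (46.9%) and 20 fell (13.6%), beside 28.0% higher and 28.1% lower of all tested genes.

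The letters CCAAT, the core of the box bound by the trimeric factor NF-Y, were found on either strand in the 250 bases before the start of 69 of the 145 members with a promoter entry (47.6%), in 42.2% of 8587 tested genes with an entry and in 37.0% of all 27305 RefSeq genes. Among members they were in 37 of 63 that rose (58.7%), 7 of 22 that fell (31.8%) and 25 of 60 that did not pass (41.7%). The pair with starts 29 bases apart, which is a subset of these, was much rarer, in 7 members (4.83%), 0.419% of tested genes and 0.22% of all RefSeq genes. These 7 were ZNF678, ZNF138, ZNF267, ZNF680, ZNF92, ZNF107 and ZNF195, and all 7 were called higher, with log2 fold changes from 0.18 (ZNF195) to 1.88 (ZNF678, whose siNC mean was under 1 FPKM) and a median of 1.29. The pair was chosen after these values were seen, so its calls and median are a description only. The ZNF195 call (adjusted p = 0.0244, edgeR) ended with upper quartile factors, with a replicate block and without siUSP43 replicate 3 or any 1 siNC library (adjusted p 0.0514 to 0.0921), and the other 6 calls held in each alternative. The 62 members with CCAAT but no such pair included 30 that rose and 7 that fell (median 0.19), and the 76 with no CCAAT included 26 that rose and 15 that fell (median 0.04). Any 2 CCAAT on the gene's strand occurred in 19 members. The spacing of 29 bases was the commonest among them, 28 bases occurred in 3, and no other spacing was in more than 1.

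Beyond the boxes, the 7 sequences share the letters TCCAATCA, CAATCAGG and TTCCGGGA, the last of which were in 243 of all 27305 RefSeq genes. They are not independent of each other: ZNF680 and ZNF107, neighbours on chromosome 7, share a run of 56 identical bases, ZNF138 and ZNF92 a run of 37, and ZNF678, on chromosome 1, shares runs of 11 to 14 bases with the other 6. The pair was also found before 11 tested ZNF genes of chromosome 19, all of which were called higher (log2 fold change 0.39 to 1.41, median 0.94). These 11 may not be independent of the members. Their boxes begin 87 and 58 bases before the start in ZNF43 and ZNF714, as in ZNF138, and 52 and 23 in ZNF675. Shared runs were not measured for the 11, and their FPKM by group is not given here. Among the 108 chromosome 19 ZNF genes with an entry and no pair, 56 were called higher and 7 lower (median 0.33). Of 18 tested genes of other kinds with the pair, 2 were called higher, 9 lower and 7 did not pass (median -0.15). No test of the motif was made, and a match in letters does not show that a factor binds.

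**Figure D3:**
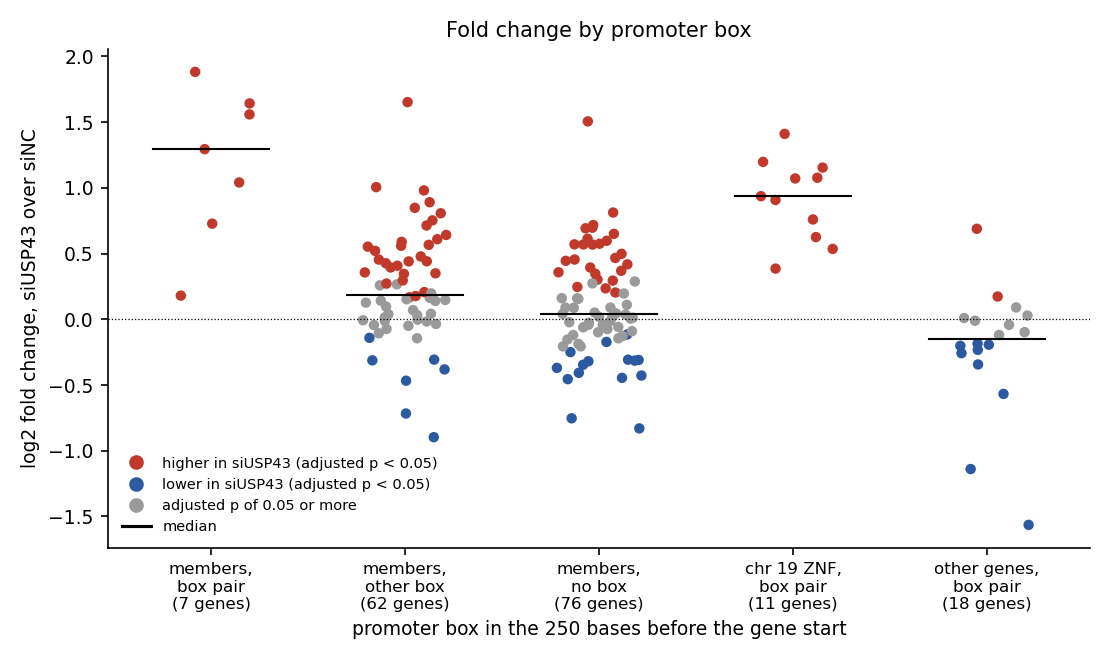
Log2 fold change, siUSP43 over siNC (y axis), by the CCAAT box in the 250 bases before the gene start (x axis), with a point per gene coloured by its call and a line at the median. The 7 members and 11 chromosome 19 genes with the box pair all lie above 0, while the 18 other genes with the pair have a median of -0.15. The pair was chosen after the members' values were seen.

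E2F-type letters were searched because the series' title names E2F1. They were found in 11 members (7.59%), in 6.10% of tested genes and in 3.40% of all RefSeq genes. Of the 11, 6 rose (ZNF277, ZNF311, ZNF343, ZNF367, ZNF644 and ZNF74), 4 fell (ZNF131, ZNF503, ZNF638 and ZNF687) and 1 did not pass. These were 9.52% of 63 members that rose, 18.2% of 22 that fell and 1.67% of 60 that did not pass. ZNF311, with a siNC mean of 0.66 FPKM, met the level threshold only through siUSP43. In ZNF367 the matches begin 35 and 21 bases before the start. The cyclic AMP response letters TGACGTCA were found in 6 members (4.14%, against 3.56% of tested genes). The letters ACTACAA, part of the site bound by ZNF143, were found in 12 members (8.28%, against 4.48%). Of these, 5 rose (7.94% of members that rose) and 2 fell (9.09% of those that fell). Of the motifs searched, only the CCAAT pair lies within another.

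KRAB genes held most of the increases. By the KEGG orthology terms in the deposited table, a split chosen after the files were seen, 83 members were annotated with KRAB, 11 of them with SCAN as well. Of these 83, 45 rose (54.2%), 5 fell (6.02%) and the median log2 fold change was 0.27. Of the other 94, 32 rose (34.0%), 20 fell (21.3%) and the median was 0.04. For all tested genes the shares were 28.0% higher and 28.1% lower. The annotation is incomplete, since ZNF138 carries no term. The KRAB members ZNF678, ZNF311, ZNF658, ZNF782, ZNF268 and ZNF717 rose with siNC means below 1 FPKM. They met the level threshold only through siUSP43, while ZNF778, which fell, met it only through siNC. The 5 KRAB members that fell were ZNF785, ZNF853 (-0.46), ZNF778 (-0.31), ZNF500 (-0.31) and ZNF286A (-0.25). That count was 3 without siUSP43 replicate 1 or 3 and without siNC replicate 2 or 3, and the median of the other 94 was 0.10 without siUSP43 replicate 2. KRAB members were also expressed at lower levels, with a median mean of 2.12 FPKM, against 3.84 FPKM for the other members. The classes were not matched for level, and the difference between them was not tested.

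**Figure D4:**
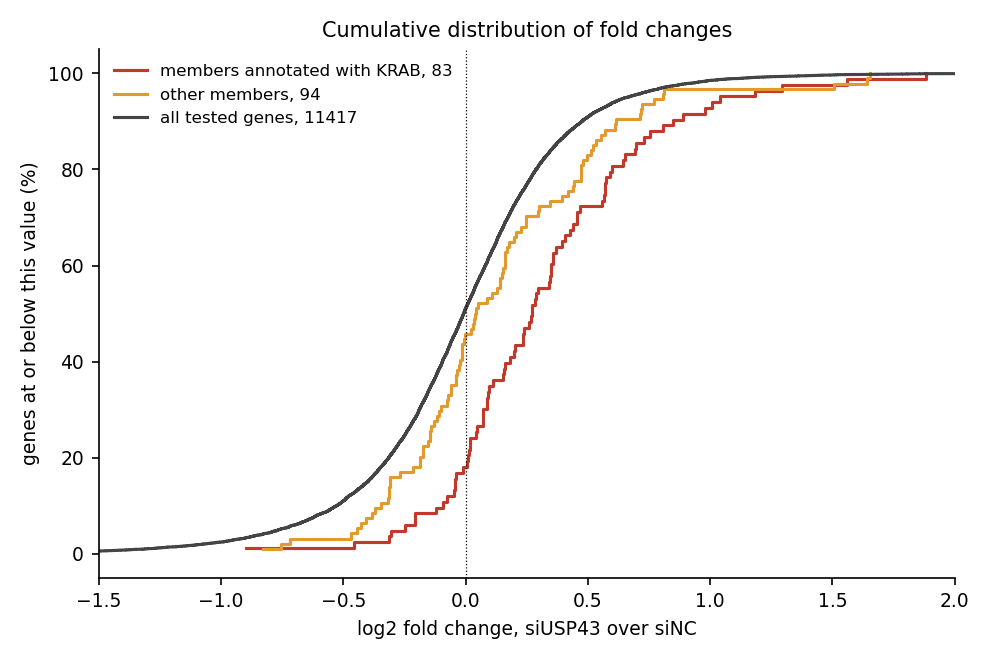
Cumulative share of genes (y axis, percent) at or below each log2 fold change, siUSP43 over siNC (x axis), for 83 members annotated with KRAB, the other 94 members and all 11417 tested genes. The KRAB curve lies furthest to the right, with medians of 0.27, 0.04 and -0.01 for the 3 sets. Some KRAB members that rose, among them ZNF678, met the level threshold only through siUSP43.

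Base composition moved with the fold change. Across genes, which are not independent replicates and share the same libraries, Spearman's rho between GC content and log2 fold change was -0.31 over 174 members and -0.24 over 11228 tested genes. The median GC content was 43.3% in members that rose and 52.0% in those that fell, against 47.6% in all tested genes. It was 44.3% in KRAB members and 47.9% in the others. With the trend on exonic size and GC over all tested genes removed, the median log2 fold change was 0.17 over the members, 0.28 over KRAB members and 0.08 over the others. With exonic size rho was -0.03 over the members and 0.13 over all tested genes. With mean FPKM it was -0.15 over the members and 0.04 over all tested genes, so the signs differed for both.

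Members of the SCAN list, whose domain lets these proteins pair, rose in 6 of 13 tested cases (46.2%) and fell in 1 (7.69%), beside 28.0% and 28.1% of all tested genes (list median 0.26). The list does not hold every member with a SCAN term. By the KEGG terms, 4 of 11 members with KRAB and SCAN rose and 1 fell (median 0.20). With SCAN alone, 2 of 4 rose and 0 fell (median 0.36). Of these, ZNF397 had a siNC mean of 0.83 FPKM and met the level threshold only through siUSP43. ZNF202 (0.65), ZNF197 (0.60), ZNF232 (0.57), ZNF18 (0.56), ZNF397 (0.55) and ZNF263 (0.35) rose, and ZNF500 (-0.31) fell. ZNF24, the highest of them in siNC, averaged 14.8 ± 1.46 FPKM in siUSP43 and 13.1 ± 0.484 FPKM in siNC (SD, n = 3 each), with an adjusted p of 0.053 by edgeR.

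Promoter activators and architectural factors were the smallest role list, with 6 of 8 members tested, of which 3 rose (50%) and 1 fell (16.7%), beside 28.0% and 28.1% of all tested genes (list median 0.23). ZNF76, which shares its site with ZNF143, was at 2.19, 2.33 and 1.87 FPKM in siUSP43, against 1.40, 1.67 and 1.35 FPKM in siNC (log2 fold change 0.51, SE 0.11, adjusted p = 0.00183, edgeR), with no overlap. ZNF143, an activator of small nuclear RNA and protein-coding promoters, did not pass, at 5.00, 5.32 and 5.23 FPKM in siUSP43, against 4.63, 4.86 and 4.24 FPKM in siNC (log2 fold change 0.16, adjusted p = 0.065, edgeR), but passed with limma on log2(FPKM + 0.1) (adjusted p = 0.0491). The GC-rich site binders ZNF281 and ZNF148 rose, with log2 fold changes of 0.44 (SE 0.08) and 0.30 (SE 0.08). ZNF281 averaged 10.9 ± 1.08 FPKM in siUSP43 and 7.97 ± 0.577 FPKM in siNC (SD, n = 3 each). ZNF335, a component of histone methyltransferase complexes, was at 3.56, 3.38 and 3.28 FPKM in siUSP43, against 4.30, 4.27 and 4.49 FPKM in siNC, a log2 fold change of -0.37 (SE 0.06). ZNF384 had a value of -0.06 and overlapping groups.

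A role list of 17 genes known to recruit co-repressors or chromatin enzymes had 15 tested members, and it leaves out most of the 83 KRAB members. Of these 15, 5 rose (33.3%) and 4 fell (26.7%), shares close to the 28.0% higher and 28.1% lower of all tested genes (list median -0.02). Among the 83 KRAB members, 54.2% rose and 6.02% fell, so the list does not stand for all members that recruit co-repressors. ZNF827, which recruits the NuRD complex, was at 1.87, 1.82 and 2.22 FPKM in siUSP43, against 1.40, 1.37 and 1.28 FPKM in siNC (log2 fold change 0.53, SE 0.08, adjusted p = 0.000139, edgeR). ZNF644, a partner of the methyltransferases EHMT1 and EHMT2, was at 7.06, 7.16 and 9.10 FPKM in siUSP43, against 5.38, 5.63 and 5.55 FPKM in siNC (log2 fold change 0.48, SE 0.09). The groups of both genes did not overlap, and siUSP43 replicate 3 was the highest library for each. ZNF217, an oncogene product that works with CoREST, was among the more abundant members and rose to 13.8 ± 1.33 FPKM in siUSP43, against 11.1 ± 0.732 FPKM in siNC (SD, n = 3 each). ZNF10, whose KRAB domain is the one used in CRISPR interference, rose as well (log2 fold change 0.41, SE 0.12).

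ZNF532, ZNF592 and ZNF687 encode the zinc finger partners of ZMYND8. ZNF532 rose, at 4.54, 4.85 and 5.25 FPKM in siUSP43, against 3.32, 3.66 and 3.27 FPKM in siNC. ZNF592 averaged 4.58 FPKM in both groups, and its groups overlapped. ZNF687 had a log2 fold change of -0.14 and an adjusted p of 0.0497 by edgeR, and its call ended in 13 of 15 alternatives. The related ZNF503 and ZNF703, which bind Groucho co-repressors, both fell. ZNF503 was at 3.23, 2.66 and 2.98 FPKM in siUSP43, against 4.76, 4.56 and 5.13 FPKM in siNC. ZNF703 had a value of -0.27 (SE 0.07), and its call ended without siNC replicate 2 (adjusted p = 0.0576, edgeR). ZNF638, which silences unintegrated retroviral DNA with the HUSH complex, fell by 0.17 (SE 0.05). ZNF516, ZNF445, ZNF746, ZNF496 and ZNF618 lay between -0.08 and 0.04 on the log2 scale, and none of them passed with edgeR.

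Members with roles in RNA, ribosomes, protein modification or mitosis rose in 4 of 13 tested cases (30.8%) and fell in 4 (30.8%), again close to the shares of all tested genes (list median -0.03). ZNF622, a cytoplasmic factor of the large ribosomal subunit, was the most abundant member, at 32.66, 32.85 and 29.65 FPKM in siUSP43, against 18.83, 17.36 and 17.37 FPKM in siNC. The groups lay far apart, with a log2 fold change of 0.81 (SE 0.07, adjusted p = 1.13e-06, edgeR). ZNF330, a nucleolar protein, averaged 18.5 ± 0.296 FPKM in siUSP43 and 16.2 ± 0.451 FPKM in siNC (SD, n = 3 each). Its increase of 0.18 in log2 terms ended as a call in 4 of 15 alternatives. ZNF277 and ZNF106 rose by 0.21 and 0.17 in log2 terms, and their calls ended in 2 and 6 alternatives, with ZNF106 at 0.11 without siUSP43 replicate 3 (adjusted p = 0.0566, edgeR).

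ZNF318, known in mouse B cells for its role in immunoglobulin RNA processing, was at 1.35, 1.48 and 1.66 FPKM in siUSP43, against 2.56, 2.48 and 2.44 FPKM in siNC. Its groups did not overlap, with a log2 fold change of -0.75 (SE 0.08, adjusted p = 1.03e-05, edgeR). ZNF346, which binds double-stranded RNA, fell by 0.41 (SE 0.08), and ZNF326, which couples transcription to splicing, fell by 0.31 (SE 0.06). ZNF207, the BUB3 partner needed for chromosome alignment, was at 14.77, 14.73 and 14.91 FPKM in siUSP43, against 16.20, 15.83 and 15.54 FPKM in siNC. Its log2 fold change was -0.12, and its call (adjusted p = 0.0285, edgeR) ended in 9 of 15 alternatives. ZNF598, the ubiquitin ligase that senses collided ribosomes, was at 13.12, 13.09 and 11.30 FPKM in siUSP43, against 13.71, 13.28 and 14.27 FPKM in siNC. Its groups did not overlap but its adjusted p was 0.0659 by edgeR. The decrease passed with upper quartile factors (adjusted p = 0.0379, edgeR) and without siUSP43 replicate 2 (adjusted p = 0.0341, edgeR), and left-out libraries gave log2 values of -0.19 to -0.086. The SUMO ligase ZNF451, ZNF385A, ZNF365 and ZNF830 did not pass.

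Members were also grouped by position along the chromosome. ZNF rows were joined into runs where neighbours lay at most 300 kb apart, and 15 runs held at least 3 members each, 68 members in all. Of these 68, 35 rose (51.5%), 2 fell (2.94%) and the median log2 fold change was 0.27. Of the 109 members in no such run, 42 rose (38.5%), 23 fell (21.1%) and the median was 0.09. The shares over all tested genes were 28.0% higher and 28.1% lower. KRAB annotation and position overlap, with 48 of the 68 and 35 of the 109 annotated with KRAB, against 20 and 74 without it. Calls were not counted within each combination of KRAB annotation and position, and the part of each was not tested. The difference between members in runs and elsewhere was not tested. The count of 2 that fell was 1 without siUSP43 replicate 1 or 3 or siNC replicate 3. Median GC content was 47.3% in runs and 45.6% elsewhere.

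The run with the highest median was on chromosome 7 (chr7:63998849-65006684), where 10 ZNF rows included 4 members, ZNF736, ZNF680, ZNF107 and ZNF138. All 4 rose, with a median of 1.01. ZNF107 was at 2.06, 1.75 and 2.15 FPKM in siUSP43, against 1.12, 1.28 and 1.16 FPKM in siNC (log2 fold change 0.73, SE 0.09). ZNF736 was at 1.60, 1.47 and 1.53 FPKM in siUSP43, against 1.09, 1.17 and 1.13 FPKM in siNC (0.43, SE 0.08). Neither gene's groups overlapped. ZNF273, in the same run and just below the level threshold, was at 1.39, 1.28 and 1.22 FPKM in siUSP43, against 0.72, 0.66 and 0.71 FPKM in siNC, and was not tested.

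On chromosome 4 (chr4:53286-499156) all 3 members rose, ZNF721 (1.18), ZNF595 (0.75) and ZNF141 (0.39). ZNF721 was at 3.74, 3.99 and 4.22 FPKM in siUSP43, against 1.78, 1.85 and 1.58 FPKM in siNC, and ZNF141 overlaps another tested gene. All 3 members also rose in a run on chromosome 10 (ZNF248, ZNF33A and ZNF37A, median 0.57) and in one on chromosome 12 (ZNF84, ZNF10 and ZNF268, median 0.45). ZNF268, with a siNC mean of 0.89 FPKM, met the level threshold only through siUSP43. The run with the most members, on chromosome 16 (chr16:30378106-31084196), held 10, with 4 that rose, 1 that fell, ZNF785, and a median of -0.02. Runs on chromosome 3 (ZNF619, ZNF620 and ZNF621) and chromosome 7 (ZNF789, ZNF394 and ZNF655) had log2 fold changes of 0.07 to 0.27 and of -0.07 to 0.15, none of which passed with edgeR.

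**Figure D5:**
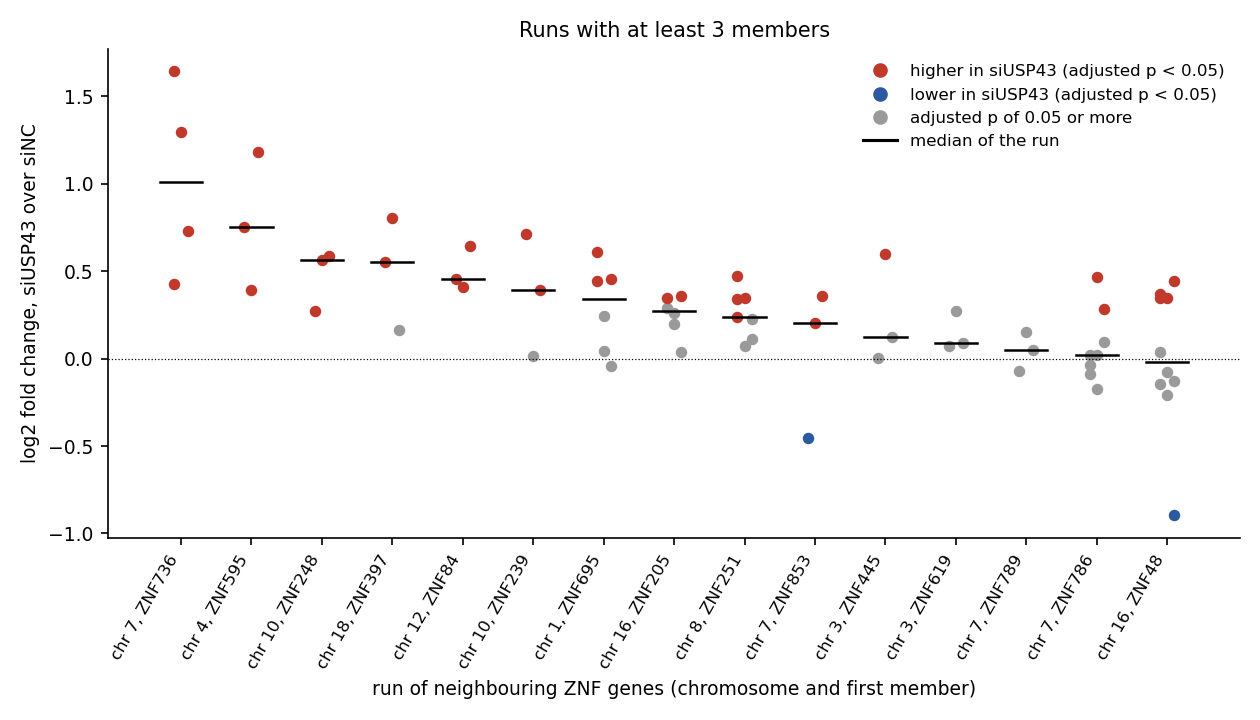
Log2 fold change, siUSP43 over siNC (y axis), of the 68 members in the 15 runs with at least 3 members (x axis, ordered by median), with a point per gene coloured by its call and a line at the run's median. Medians range from 1.01 on chromosome 7 (ZNF736 run) to -0.02 on chromosome 16 (ZNF48 run).

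The machinery that KRAB proteins recruit was described by a list of 33 genes, all tested, of which 17 rose (51.5%), 7 fell (21.2%) and 9 did not pass (median log2 fold change 0.17), beside 28.0% higher and 28.1% lower over all tested genes. TRIM28, which binds the KRAB domain, averaged 54.9 ± 3.99 FPKM in siUSP43 and 48.3 ± 1.41 FPKM in siNC (SD, n = 3 each), with a log2 fold change of 0.17 (adjusted p = 0.0233, edgeR). SETDB1, the methyltransferase it recruits, averaged 2.86 ± 0.172 FPKM in siUSP43 and 3.25 ± 0.116 FPKM in siNC (SD, n = 3 each), with -0.20 (adjusted p = 0.0259, edgeR). The TRIM28 call ended in 6 of 15 alternatives (adjusted p up to 0.101, edgeR) and the SETDB1 call in 7 of 15 (up to 0.118, edgeR). The largest increases were in TASOR (0.73), a HUSH subunit, MTA1 (0.60), a NuRD subunit, and SUV39H2 (0.59), a histone methyltransferase. The largest decreases were in EHMT2 (-0.56), MBD3 (-0.24) and CBX3 (-0.23). The MBD3 call ended without siUSP43 replicate 1 (adjusted p = 0.0639, edgeR) and without siNC replicate 3 (-0.19, adjusted p = 0.0743, edgeR). With the size and GC trend removed the list median was 0.07, and 3 of its genes fell without siNC replicate 3 in place of 7.

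Set beside related families in the same libraries, the members had a lower median than the ZNF genes of either arm of chromosome 19. On its short arm 34 of 44 tested ZNF genes were called higher and 2 lower (median 0.66), and on its long arm 42 of 90 were called higher and 6 lower (median 0.27). Those genes were also expressed at lower levels, with median means of 1.77 and 1.69 FPKM, against 2.56 for the members. The long arm's median was close to that of members below 2 FPKM (0.27) and of KRAB members (0.27). The sets were not matched for level or class. ZBTB genes, which pair zinc fingers with a BTB domain, were called higher in 15 of 32 cases and lower in 3 (median 0.14). ZFP genes were higher in 6 of 11 (median 0.24) and ZKSCAN genes in 2 of 4 (median 0.115). ZSCAN genes were higher in 3 of 10 (30.0%) and lower in 1 (median 0.02). Beside these stand 28.0% higher and 28.1% lower over all tested genes, and the ZSCAN share called higher was close to the former. All of these comparisons use the same 6 libraries, and the differences between families were not tested.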

How the data were processed

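RNA from T24 cells was measured in 3 siUSP43 and 3 siNC libraries, grouped by the sample titles. Raw read counts per gene and FPKM were deposited side by side in 1 table by the authors, per the file headers. The submitters' processing notes name cutadapt 2.6, HISAT2 2.2.1 and genome build GRCh38. How reads were counted, on which annotation, with or without strand, and how multiply mapped reads were treated is not given in the sources used here.

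Counts of the 11417 genes with a mean of at least 1 FPKM were fitted with edgeR 4.0.16 in R 4.3.3 (TMM factors, quasi-likelihood test, group as the only term, two-sided, Benjamini-Hochberg adjustment over all of them, threshold 0.05). The fit was also run on simulated counts with far fewer changed genes than were called here, so that run does not cover this setting. Fold changes are siUSP43 over siNC. The members had median counts of 399 to 488 per library, with a lowest single count of 57. Named genes were the 10 largest increases and 8 largest decreases without overlap between groups and with at least 2 FPKM in the higher group, the 6 highest members, role lists, and the largest co-repressor changes. Gene type and GC content came from GENCODE 29 (174 of 177 members). Members and lists were chosen with earlier results of these data known. The alternatives were scaling, filter, DESeq2 1.42.0, limma 3.58.1 on log2(FPKM + 1), membership, a size and GC trend, a replicate block and each left-out library. Those for KRAB classes and runs were added after seeing the data.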

Additional observations from a re-analysis of the deposited data

How the results depend on the processing

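The member counts were within 1.5 times of 77 higher and 25 lower under each alternative scaling, filter, test, replicate block and left-out library, and the median log2 fold change stayed above 0. Leaving out 1 library at a time gave 67 to 78 higher, 20 to 26 lower and medians of 0.14 to 0.19. The members' median was 0.12 with upper quartile factors (all tested genes -0.044), 0.12 with limma on log2(FPKM + 1), and 0.096 for members at 2 FPKM or more, 45 of which rose. KRAB members had 3 lower with limma at either pseudocount and a median of 0.18 at a pseudocount of 1, and members in runs then had 0.20. Members in no run had 0.053 with upper quartile factors. Left-out libraries gave 3 to 5 lower KRAB members, medians of 0.038 to 0.10 for members without KRAB, 1 to 2 lower members in runs, and medians of 0.074 to 0.13 for members in no run. The co-repressor median was 0.13 with upper quartile factors, 0.067 without the size and GC trend and 0.12 to 0.19 over left-out libraries, with 3 to 8 genes lower.

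Same-numbered libraries did not deviate together (correlations -0.013, -0.126 and -0.261). With the replicate block, 69 members rose and 23 fell (median 0.15).

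Uncalled genes near 0 changed sign. ZNF445 was at -0.031 with upper quartile factors. ZNF592 was at 0.0009 and ZNF385A at 0.0021 with limma on log2(FPKM + 1), and they were at 0.0012 and 0.0021 at a pseudocount of 0.1. Over left-out libraries, log2 fold changes were -0.0092 to 0.085 for ZNF516, -0.081 to 0.054 for ZNF445, -0.050 to 0.036 for ZNF592, -0.096 to 0.044 for ZNF746, -0.056 to 0.039 for ZNF451, -0.086 to 0.089 for ZNF385A and -0.14 to 0.14 for ZNF365. The causes were not tested. Of the single-gene values, 854 kept direction and call, 56 lost the call and 3 gained one. Among members under 1.5 FPKM, the smallest change that passed was 0.30 on the log2 scale.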
